A study of Mus musculus with 6 samples.

Results

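Macrophages and other myeloid cells of subcutaneous white fat were followed through 40 listed genes in mice with and without a Ucp1-driven Cre on floxed Yy1. The genes were chosen by name for their known use as markers, with earlier results of these data known. Each was represented by the probe set with the highest mean log2(intensity + 1). The annotation named a probe set for 38 of the 40, out of 12394 genes tested, while Spp1 (osteopontin) and Il1rl1 (the receptor of interleukin 33) had none and were not analysed here. Control mice carried floxed alleles of Yy1 (YY1flox/flox), and YY1bKO mice carried the same alleles with Ucp1Cre, a recombinase under the Ucp1 promoter, active chiefly in brown and beige fat cells. All mice were aged 8 weeks, had a mixed C57BL6 and 129 background and ate a high fat diet for 2 weeks. Each group had 3 arrays of total RNA from whole tissue, the labels name no mice with Cre and without floxed Yy1, and the small number of arrays limits precision throughout. The labels do not say that the arrays came from separate animals, so p-values measure only the spread between these samples, which may be technical. The comparison asks how the myeloid genes of this fat depot differ between the genotypes.

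Fat tissue holds resident macrophages that carry the mannose receptor and the haemoglobin scavenger receptor, and these cells clear debris and support vessels. In obesity a further population gathers around dying adipocytes, takes up their lipid and turns on Trem2, Gpnmb, Cd9, Lgals3 and proteases, and it is known as lipid-associated macrophages. Granulocytes, mainly neutrophils, enter early in high fat feeding and carry S100a8 and S100a9 in large amounts. In whole tissue, fewer cells of a type and less RNA per cell cannot be told apart.

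The tissue label fitted its defining markers, since log2 values of Adipoq (adiponectin) lay between 13.96 and 14.29 and those of Lep (leptin) between 12.33 and 13.39 in the 6 arrays. Yy1 itself, the targeted gene, read 10.33, 10.52 and 10.62 in control arrays, against 10.13, 10.41 and 10.20 in YY1bKO arrays (log2 difference -0.24 ± 0.12 SE, limma adjusted p = 0.574), so the whole tissue checks the labels only in part. Ucp1 was at 5.43 to 5.71 in control fat and 10.65 to 11.01 in YY1bKO. Other tissue varied between arrays of a group. Control replicate 2 had a keratinocyte list mean of 3.62 (mean of 9 genes, each centred on its mean over the arrays), against -0.88 to -0.55 in the other 5 arrays, with Krt14 at 12.45 in that array and 4.68 to 5.25 elsewhere. Of the 9 genes 8 were highest in that array and 1 was not. The mammary epithelium list mean was also highest there (1.78), so the lists do not settle which epithelium it held. YY1bKO replicate 1 had a skeletal muscle list mean of 2.66, against -0.70 to -0.22 elsewhere. The depot is labelled IWAT, usually the inguinal pad, which holds a lymph node, and the B cell list had means of -1.62, 0.75 and 1.92 in controls 1 to 3 and of -2.02, 1.04 and -0.07 in YY1bKO 1 to 3. Results that rest on control replicate 2 are therefore given with and without it.

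No myeloid gene passed a limma adjusted p of 0.05, where 0.0323% of all genes did. Of the 38 measured genes 29 were lower and 9 higher in YY1bKO, with a median log2 difference of -0.22 against 0.005 over all genes, of which 49% were below 0. At an unadjusted p under 0.05 the count was 2 lower, Cd44 and Itgax (1.99% of all genes), and 1 higher, Cd163 (8.45% of all genes). These 3 were also the only measured myeloid genes whose groups did not overlap, where 5% of all genes were lower and 11.5% higher in that way. The gene groups differed in their medians, which were -0.37 for 15 lineage genes, 0.08 for 7 complement and Fc receptor genes, 0.08 for 5 resident macrophage genes, -0.29 for 9 lipid-associated genes and -1.10 for the 2 granulocyte genes. In the map of centred values by array, the controls are the more uneven group. Either control replicate 1 or control replicate 3 held the highest value of 30 of the 38 genes, and either control replicate 2 or YY1bKO replicate 1 the lowest of 36.

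**Figure D1:**
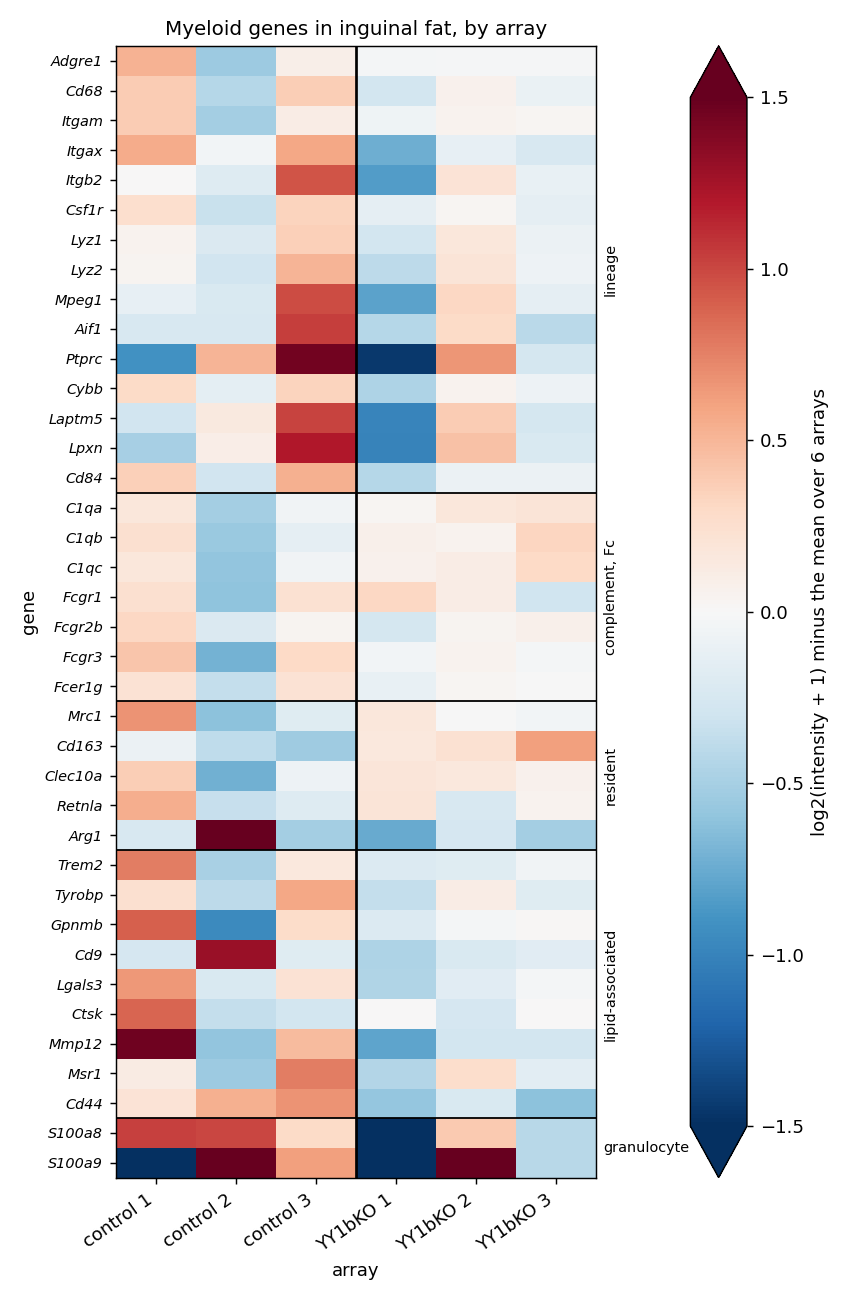
Centred log2(intensity + 1) of the 38 measured myeloid genes (rows, by group) in each of the 6 arrays (columns), where red is above and blue below the gene's mean over the arrays and the scale ends at 1.5 either way. Control 2 is the palest or bluest control for most macrophage genes but red for Ptprc, Arg1, Cd9, S100a8 and S100a9. Cd44 is red in all 3 controls and blue in all 3 YY1bKO arrays.

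Among lipid-associated macrophage genes, all 9 measured members had lower means in YY1bKO, and Cd44 had the smallest p of any myeloid gene. Cd44, the hyaluronan receptor, is carried by lipid-loaded macrophages and also by lymphocytes and epithelial cells. Its log2 values were 9.45, 9.79 and 9.93 in control fat and 8.67, 9.03 and 8.64 in YY1bKO. Every YY1bKO array thus lay below every control array. The control mean was 1.92 times the YY1bKO mean, with a log2 difference of -0.94 ± 0.17 (SE, n = 3 per group; 95% confidence interval -1.36 to -0.53), an unadjusted p of 0.00139 and a limma adjusted p of 0.173. On the linear scale the intensity was 852.9 ± 139.8 in controls and 442.5 ± 68.6 in YY1bKO (SD, n = 3). A dimmer Cd44 probe set gave -0.59, also with no overlap between the arrays, and without control replicate 2 the difference was -0.91.

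Trem2, the lipid-sensing receptor that defines the lipid-associated state, read 7.52, 6.27 and 6.90 in control fat and 6.55, 6.57 and 6.70 in YY1bKO. The YY1bKO arrays lay close together, inside the range of the controls, whose lowest array was replicate 2. The log2 difference was -0.29 ± 0.30 (SE), and -0.60 ± 0.20 without control replicate 2 (unadjusted p 0.0262, limma adjusted p = 0.464, with alternatives spanning 0.464 to 0.979). Without control replicate 1, the highest array, the Trem2 difference was 0.022. Its other probe set averaged 4.73, below the lower quartile of brightness of every array (4.95 to 5.03), and gave -0.11. Tyrobp, the adaptor through which TREM2 signals, read 11.32, 10.68 and 11.65 in control fat and 10.72, 11.18 and 10.89 in YY1bKO, with a difference of -0.28 that became -0.55 without control replicate 2 and -0.065 without control replicate 3. Gpnmb, a lysosomal glycoprotein of lipid-loaded macrophages, read 9.75, 7.89 and 9.13 against 8.65, 8.82 and 8.87, and its difference of -0.14 was -0.66 without control replicate 2 and 0.27 without control replicate 1. Both genes follow the Trem2 pattern, with controls 1 and 3 above all YY1bKO arrays and control 2 below them.

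Mmp12, the macrophage elastase, had the largest difference of the macrophage genes without control replicate 2. Its values were 8.85, 6.80 and 7.87 in control fat and 6.61, 7.13 and 7.12 in YY1bKO. The groups overlapped through control replicate 2 alone. The log2 difference was -0.89 ± 0.50 (SE; limma adjusted p = 0.620) in all arrays and -1.41 ± 0.33 without that array (0.327, with alternatives spanning 0.327 to 0.979), where the control mean was 2.66 times that of YY1bKO. Without control replicate 1, its highest array, the Mmp12 difference was -0.38. Lgals3 (galectin 3, a glycan-binding protein of activated macrophages) ran from 11.66 to 12.54 in control fat and from 11.43 to 11.86 in YY1bKO. Its differences were -0.43 and, without control replicate 2, -0.65 (-0.21 without control replicate 1). Msr1, the scavenger receptor for modified lipoprotein, gave -0.23 and -0.56, and its 4 probe sets ran from -0.23 to 0.11 in all arrays. Ctsk (cathepsin K, a collagen-degrading protease) gave -0.16 and -0.38, with 1 high array, control replicate 1 at 10.17, and 8.93 to 9.30 in the others, and without that array it gave 0.24. Cd9, a tetraspanin also found on epithelial cells, was highest in control replicate 2 at 11.62 and lay between 9.86 and 10.15 elsewhere. Its difference was -0.57 with that array and -0.06 without it.

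**Figure D2:**
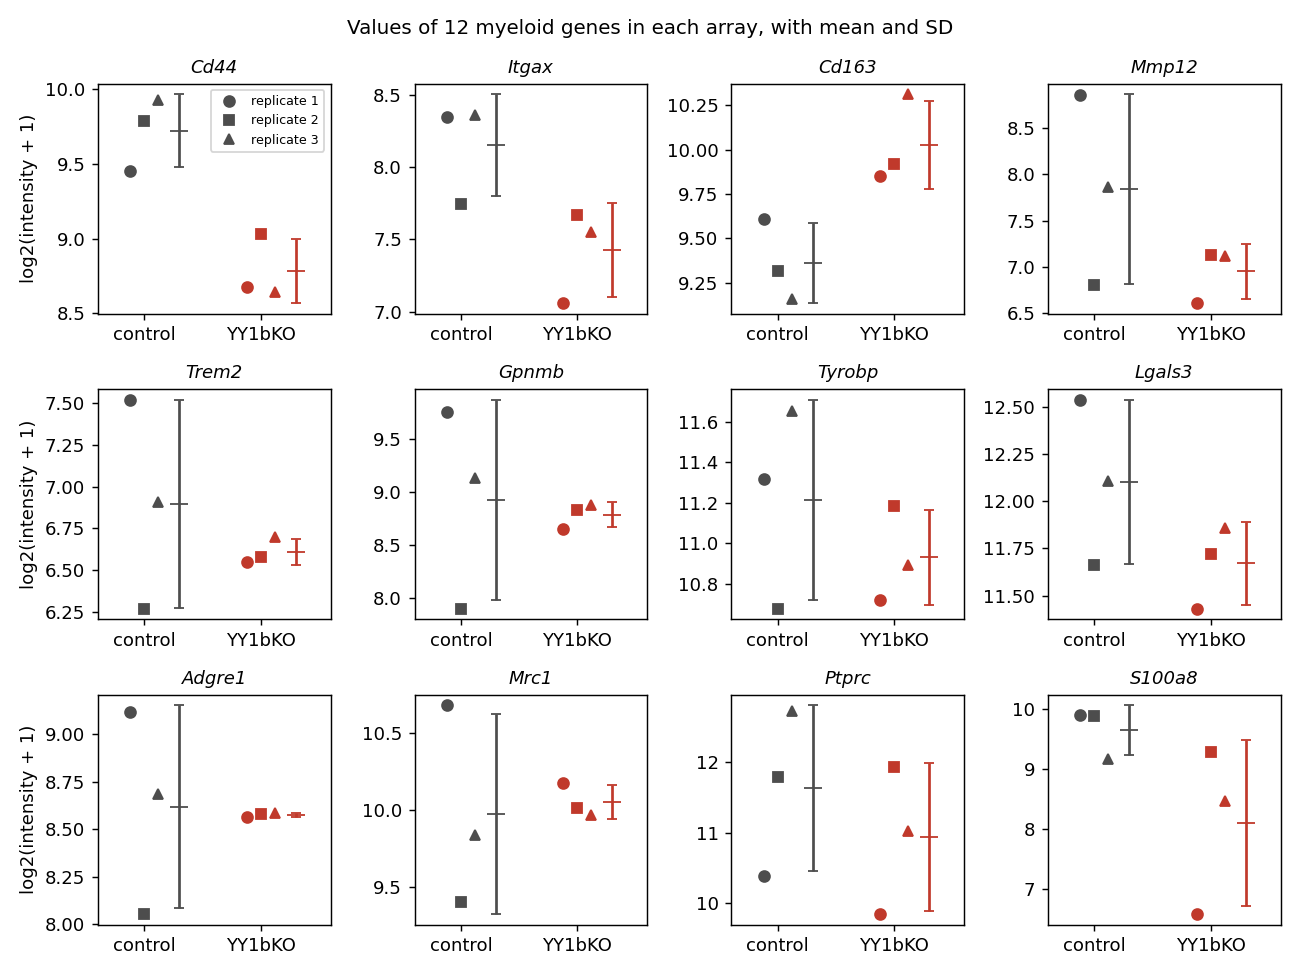
Log2(intensity + 1) of 12 myeloid genes in each array, controls in grey and YY1bKO in red, with replicate numbers as marker shapes and the mean and SD (n = 3) beside the points. Cd44, Itgax and Cd163 do not overlap between groups, while control replicate 2 (grey square) lies below the other controls for Mmp12, Trem2, Gpnmb, Tyrobp, Lgals3, Adgre1 and Mrc1.

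Of the 5 resident macrophage genes 4 had higher means in YY1bKO and 1, Arg1, a lower mean. Without control replicate 2 only Cd163 was higher. Cd163, the scavenger receptor for haemoglobin bound to haptoglobin, read 9.61, 9.32 and 9.16 in control fat and 9.85, 9.92 and 10.31 in YY1bKO, so every YY1bKO array was above every control. The YY1bKO mean was 1.59 times the control mean, with a log2 difference of 0.67 ± 0.18 (SE; 95% confidence interval 0.24 to 1.09), an unadjusted p of 0.00861 and a limma adjusted p of 0.295. Without control replicate 2 the difference was 0.65. Linear intensities were 661.7 ± 106.2 in controls and 1054 ± 190.3 in YY1bKO (SD, n = 3). Mrc1, the mannose receptor CD206, read 10.69, 9.40 and 9.83 in control fat and 10.18, 10.01 and 9.97 in YY1bKO. The YY1bKO arrays lay within the range of the controls, and the difference of 0.08 ± 0.32 (SE) became -0.21 ± 0.26 without control replicate 2. Clec10a, a galactose-type lectin of resident macrophages, likewise went from 0.28 to -0.01, and Retnla (the secreted protein RELMα of alternatively activated macrophages) from 0.002 to -0.17. Arg1 (arginase 1, of alternatively activated macrophages and also of epidermis) read 6.63 in control replicate 2 and 3.62 to 4.14 in the other arrays, all below the lower quartile of brightness. Its difference of -1.01 was -0.13 without that array.

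Complement and Fc receptor genes, which macrophages of most tissues carry, had a median log2 difference of 0.08 with all arrays included. The 3 chains of C1q, the starter of the classical complement pathway that tissue macrophages secrete, gave 0.26 (C1qa), 0.30 (C1qb) and 0.32 (C1qc). Their lowest array was control replicate 2 in each case (10.39, 10.17 and 9.37), and without it the differences were 0.07, 0.09 and 0.10. The other probe sets of C1qb, with mean log2 values of 10.67 and 10.29 beside 10.72, gave 0.11 and 0.12 in all arrays and -0.14 and -0.13 without control replicate 2. Fcgr1, the high affinity IgG receptor, gave 0.08, Fcgr2b, the inhibitory receptor, -0.09, Fcgr3, the activating low affinity receptor, -0.01, and Fcer1g, the signalling chain that the activating receptors share, -0.06. Fcgr3 read 10.44, 9.32 and 10.32 in control fat and between 9.98 and 10.08 in YY1bKO, and its difference was -0.36 without control replicate 2 (unadjusted p 0.0136, limma adjusted p = 0.397, with alternatives spanning 0.397 to 0.999). The 4 probe sets of Fcgr2b ran from -0.17 to 0.11.

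Of the 15 lineage genes 14 had lower means in YY1bKO, with Itgam the exception. Itgax (CD11c, an integrin chain of dendritic cells and of macrophages recruited in obesity) read 8.35, 7.75 and 8.37 in control fat and 7.06, 7.67 and 7.55 in YY1bKO. The groups did not overlap, although the lowest control and the highest YY1bKO array were close. The control mean was 1.65 times that of YY1bKO, with a log2 difference of -0.73 ± 0.24 (SE; 95% confidence interval -1.30 to -0.15), an unadjusted p of 0.0216 and a limma adjusted p of 0.378. Without control replicate 2 it was -0.93 ± 0.20. Itgam (CD11b), its counterpart on monocytes and neutrophils, lay near the lower quartile of brightness at 5.71, 4.82 and 5.44 against 5.27, 5.39 and 5.36, and gave 0.02. Itgb2, the chain that pairs with both, gave -0.51.

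Genes used mainly as macrophage markers lay closer to 0 than Itgax with all arrays included. Adgre1, which encodes the macrophage antigen F4/80, read 9.11, 8.05 and 8.69 in control fat and 8.56, 8.58 and 8.58 in YY1bKO. Its SD was 0.53 in control fat and 0.01 in YY1bKO, and the difference was -0.04 ± 0.26 (SE), or -0.33 ± 0.15 without control replicate 2. Cd68, a lysosomal protein of phagocytes, read 9.31, 8.51 and 9.30 against values from 8.65 to 9.0. Its differences were -0.21 and, without control replicate 2, -0.48 (-0.07 without control replicate 1, -0.08 without control replicate 3). Csf1r, the receptor for the macrophage growth factor, gave -0.16 and -0.37 at its brightest probe set (-0.08 without control replicate 1, -0.04 without control replicate 3). Its other probe sets gave 0.10 and 0.12 in all arrays. Cybb, a subunit of the phagocyte NADPH oxidase, gave -0.32 and -0.47, and Cd84, a leukocyte adhesion receptor, -0.40 and -0.65. Lyz2, the lysozyme of macrophages, read 12.72, 12.38 and 13.18 against 12.28, 12.87 and 12.60. Lyz1, its intestinal paralog, read 13.48, 13.20 and 13.77 against 13.14, 13.58 and 13.33, with the arrays in the same order. The Lyz1 probe set used carries the Affymetrix suffix for probes that also match other sequences, and the Lyz1 probe set without that suffix averaged 5.20, so the 2 lysozymes cannot be told apart by the brighter signal. Their differences were -0.17 (Lyz2) and -0.13 (Lyz1). Both were kept in the counts and medians, so a shared signal may be counted under both genes.

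The lineage genes with the largest spread between control arrays were Ptprc, Lpxn, Aif1, Mpeg1 and Laptm5, and lymphocytes also express several of them. Ptprc (CD45, the phosphatase of all leukocytes) read 10.38, 11.79 and 12.73 in control fat and 9.84, 11.94 and 11.02 in YY1bKO. The array order of Ptprc, from YY1bKO 1 and control 1 at the bottom to control 3 at the top, was that of the B cell list mean. Laptm5, a lysosomal protein of blood cells, and Lpxn, the adaptor leupaxin, had the same order of arrays. Their differences were -0.70 (Ptprc), -0.58 (Laptm5) and -0.53 (Lpxn), with standard errors of 0.74, 0.45 and 0.53. Mpeg1, the pore protein of phagocytes, gave -0.42, and Aif1, a calcium-binding protein of macrophages, -0.37, each highest in control 3 (11.35 and 9.08) and lowest in YY1bKO 1 (9.56 and 7.62). With the B cell list mean as a covariate, an alternative chosen after seeing the data, the differences were -0.24 (Ptprc), -0.32 (Laptm5), -0.22 (Lpxn), -0.21 (Mpeg1) and -0.18 (Aif1). In the same fit Cd44 gave -0.86, Itgax -0.68, Mmp12 -0.98 and Cd163 0.63, and the lineage median was -0.21.

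The granulocyte genes S100a8 and S100a9 encode the chains of calprotectin, which neutrophils store and stressed keratinocytes also make. S100a8 read 9.90, 9.87 and 9.16 in control fat and 6.58, 9.27 and 8.47 in YY1bKO, and S100a9 read 5.57, 9.01 and 7.72 against 4.88, 8.75 and 6.69. Both were lowest in YY1bKO replicate 1, and the groups overlapped. The log2 differences were -1.54 ± 0.68 for S100a8 (SE; unadjusted p 0.0630, limma adjusted p = 0.512) and -0.66 ± 1.22 for S100a9 (0.886). Without control replicate 2 they were -1.42 and 0.13. Without YY1bKO replicate 1 the S100a8 difference was -0.78, the S100a9 difference 0.29, and the median of the pair -0.24.

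Of the alternatives run, leaving out control replicate 2 moved the count of lower genes most. The count lower at an unadjusted p under 0.05 went from 2 to 12 of 38 genes, or 31.6%, where 2.82% of all genes were lower in that way. The 12 were Cd44, Mmp12, Trem2, Tyrobp, Gpnmb and Lgals3 of the lipid-associated genes, Itgax, Cd68, Csf1r, Cybb and Cd84 of the lineage genes, and Fcgr3. Cd163 remained the only gene higher at that p (6.79% of all genes). In 15 genes both remaining controls lay above all YY1bKO arrays, where 10.8% of all genes did, and Cd163 was the 1 gene with both below (15.4%). Adjusted over all genes, 0 of the 38 passed by limma in that fit, in which 0.0403% of all genes passed, and the smallest adjusted p among them was 0.295. The medians were -0.58 for lineage, -0.20 for complement and Fc receptor, -0.13 for resident, -0.60 for lipid-associated and -0.65 for granulocyte genes, against -0.008 over all genes, and 33 of the 38 genes were below 0 beside 51.9% of all genes.

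Other single arrays moved the counts in other directions. Without control replicate 1, which held the highest Mrc1, Trem2, Gpnmb and Mmp12 values, 6 genes were higher at an unadjusted p under 0.05 and 1 was lower (4.62% of all genes). The 6 were C1qa (0.42), C1qb (0.49), C1qc (0.48), Mrc1 (0.44), Clec10a (0.53) and Cd163 (0.79), which is 15.8% of the 38 beside 13.2% of all genes in that fit. Without control replicate 3 the median was -0.066 for all 38 genes and -0.066 for lineage genes, and without YY1bKO replicate 1 it was -0.12 and -0.15. Without control replicate 3 (2.32% of all genes), or without YY1bKO replicate 1 (1.22%), 1 gene was lower. Without both control replicate 2 and YY1bKO replicate 1, a choice made after seeing the data, 6 were lower (1.74% of all genes). In each of these fits 1 myeloid gene was higher at that p, where 7.29%, 5.02% and 3.71% of all genes were, in the order given. The keratinocyte markers of control replicate 2 and the low macrophage values of that array occur together, and the part of the former in the result was not tested. Other lists also stood apart in that array, since the mammary epithelium list mean was highest there (1.78), and 7 of 8 adipocyte, 6 of 7 fibroblast and 6 of 9 mast cell genes had their lowest value there, so low values in it were not particular to macrophage genes.

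**Figure D3:**
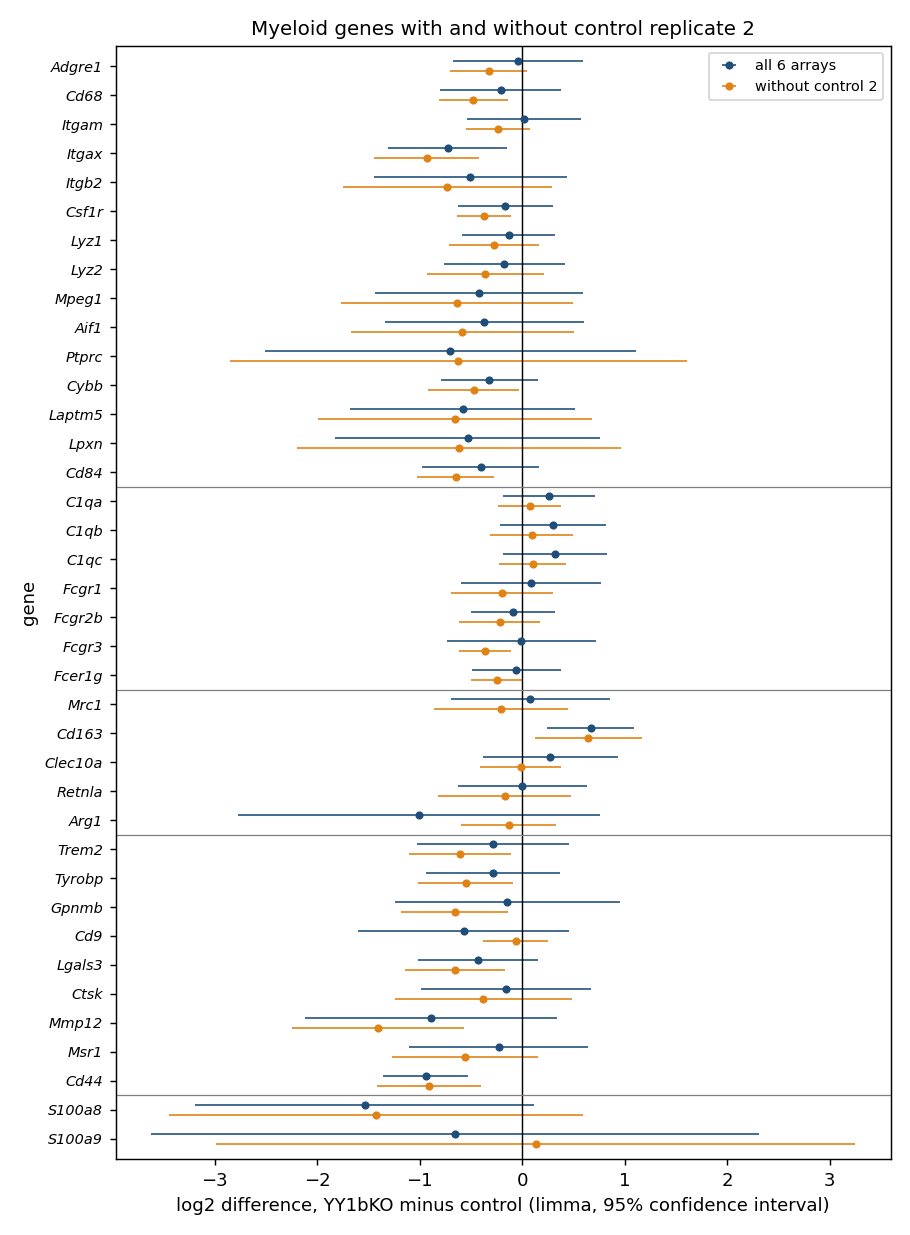
Log2 difference, YY1bKO minus control, with its 95% confidence interval from limma for each myeloid gene, in all 6 arrays (blue) and without control replicate 2 (orange), with horizontal lines between the gene groups. Without that array all 15 lineage and all 9 lipid-associated genes lie below 0, while Cd163 stays above 0 in both fits.

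The list means by array show the same split among the gene groups. The lipid-associated list was highest in controls 1 and 3 (0.55 and 0.30), with -0.19 in control 2 and -0.39, -0.11 and -0.16 in YY1bKO 1 to 3. The lineage list read 0.05, -0.18 and 0.65 in control fat and -0.55, 0.17 and -0.15 in YY1bKO, with its highest array in control 3 and its lowest in YY1bKO 1, as in the B cell list. The complement and Fc receptor list set only control 2 apart, at -0.51 against 0.01 to 0.25 in the other arrays. The resident list read 0.25, 0.04 and -0.30 in control fat and lay between -0.02 and 0.04 in YY1bKO, and its value in control 2 includes Arg1.

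**Figure D4:**
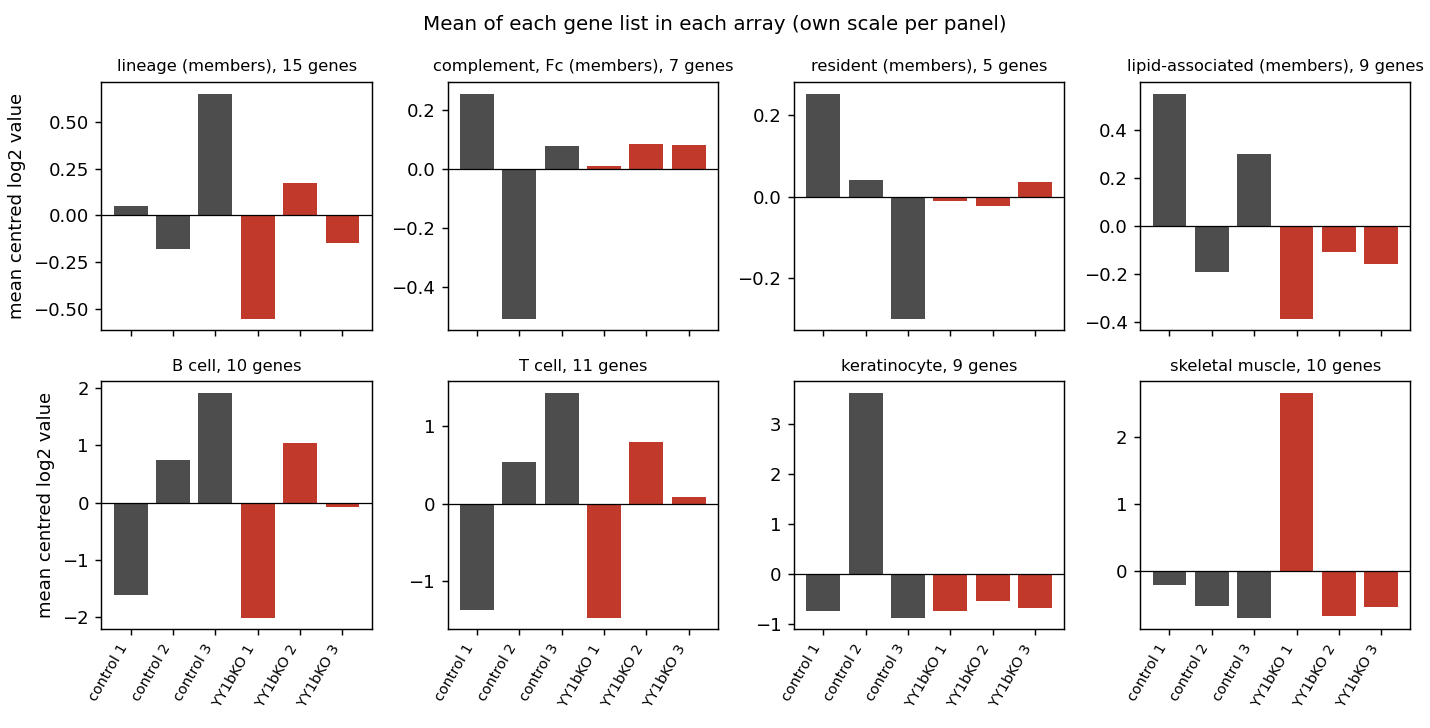
Mean of each gene list in each array after centring every gene on its mean over the 6 arrays (log2 units; controls grey, YY1bKO red; panels have their own scales). The keratinocyte list stands out in control 2 (3.62), the skeletal muscle list in YY1bKO 1 (2.66), and the B and T cell lists differ more between arrays of a group than between groups.

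Lists of cells that could also supply these genes were measured beside them. All 10 B cell and all 11 T cell genes measured had lower means in YY1bKO, with medians of -0.68 and -0.42. In each list 0 passed an unadjusted p of 0.05 by limma, where 1.99% of all genes were lower and 8.45% higher. Ms4a1 (CD20, a B cell surface protein) ran from 4.89 to 11.76 over the arrays. Of 8 dendritic cell genes 7 were lower (median -0.22), and of 9 mast cell genes 6 were higher (0.13). No member of either list was at an unadjusted p under 0.05, beside those same shares of all genes. All 11 proliferation genes were lower (median -0.75), 3 of them at an unadjusted p under 0.05 (1.99% of all genes) and 7 without overlap between the groups (5% of all genes), and Cdk1, the mitotic kinase, had the smallest p (-0.67, limma adjusted p = 0.295). Per array, the mean of that list was 0.01, 0.44 and 0.81 in controls 1 to 3 against -1.13, -0.06 and -0.07 in YY1bKO 1 to 3. Of 8 adipocyte genes 7 were higher (median 0.44), 4 of them at an unadjusted p under 0.05 (8.45% of all genes). The part of these cells in the myeloid differences was not tested. The covariate fit above cannot decide it, since its covariate came from the same arrays and was chosen after seeing the data.

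Other myeloid genes gave a mixed picture, and 0 passed the adjusted threshold by limma. Of 16 further resident macrophage genes 13 were higher (median 0.30), with Lyve1, a hyaluronan receptor of perivascular macrophages and lymphatic vessels (0.56), and Stab1, a scavenger receptor (0.41), at an unadjusted p under 0.05, where 8.45% of all genes were higher, and none lower. Without control replicate 2 that median was 0.13, 13 of the 16 were still higher, and none remained at that p (6.79% of all genes). Of 16 further genes of lipid-loaded macrophages, several of which adipocytes also express, 9 were lower and 7 higher (median -0.05). The cathepsins Ctsl (-0.43) and Ctsd (-0.33) and the cathepsin inhibitor Cstb (-0.62) were lower at an unadjusted p under 0.05 (1.99% of all genes). The lipid carrier Apoe was higher at that p (0.37), where 8.45% of all genes were. Ctsl, for one, read 13.34, 13.31 and 12.91 in control fat and 12.71, 12.74 and 12.81 in YY1bKO, without overlap.

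Of 11 monocyte genes 6 were higher and 5 lower (median 0.03), and Ccr2, the receptor that brings monocytes into tissue, gave -0.13. All 13 genes of signalling below immune receptors were lower (median -0.42), none at an unadjusted p under 0.05 (1.99% of all genes). Each of the 13 was highest in control 3, the array with the highest B cell mean. Among 9 myeloid regulators, Nr1h3, the oxysterol receptor LXRα (0.62), was higher at an unadjusted p under 0.05 (8.45% of all genes). Runx1 (-0.79) and Bhlhe40 (-0.57) were lower at that p (1.99% of all genes), while Spi1, which encodes the myeloid factor PU.1, gave -0.24. Of 10 growth factors and cytokine receptors 9 were lower. The exception was Il34, the second ligand of the CSF1 receptor (0.38, at an unadjusted p under 0.05, where 8.45% of all genes were higher). Csf1 itself gave -0.03. Of 14 further granulocyte genes 10 were lower (median -0.13). Prtn3, a serine protease of neutrophil granules, was higher at an unadjusted p under 0.05 (1.07), where 8.45% of all genes were. Its values were 6.19, 6.36 and 6.69 in control fat and 7.99, 7.52 and 6.95 in YY1bKO. Lcn2, carried by neutrophils and by epithelium, read 10.48 in control 2 and 4.90 to 6.06 elsewhere.

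Promoters of Cd44, Itgax and Cd163, whose groups did not overlap, and of Mmp12 and Trem2 from the lipid-associated genes are shown so that their factor motifs can be compared, as the 250 bases before the start in RefSeq (GRCm38.p6), in lower case with motif matches in capitals. The table held 33 starts for 30 of the 38 genes. The motifs searched on both strands were GAGGAAGT (PU.1 and other ETS factors), TGANTCA (AP-1) and CACGTG (the E-box of MITF and TFE factors), and no matches of different motifs overlapped in the windows shown.
Cd44, chr2:102901666-102901915, minus strand: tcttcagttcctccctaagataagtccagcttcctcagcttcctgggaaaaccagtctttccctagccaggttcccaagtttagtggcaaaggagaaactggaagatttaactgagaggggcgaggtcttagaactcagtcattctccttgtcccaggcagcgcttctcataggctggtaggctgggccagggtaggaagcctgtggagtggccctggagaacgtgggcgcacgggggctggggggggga
Itgax, chr7:128129300-128129549, plus strand: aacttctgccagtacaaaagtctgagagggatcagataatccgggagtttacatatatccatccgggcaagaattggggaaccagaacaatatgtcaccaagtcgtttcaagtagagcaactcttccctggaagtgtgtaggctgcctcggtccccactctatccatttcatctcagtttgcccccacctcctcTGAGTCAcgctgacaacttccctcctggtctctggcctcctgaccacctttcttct
Mmp12, chr9:7344147-7344396, plus strand: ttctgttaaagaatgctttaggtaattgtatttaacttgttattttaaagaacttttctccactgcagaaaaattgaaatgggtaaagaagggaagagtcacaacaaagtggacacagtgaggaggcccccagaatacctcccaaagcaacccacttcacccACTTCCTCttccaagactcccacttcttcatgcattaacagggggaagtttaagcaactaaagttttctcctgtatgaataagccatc
Trem2, chr17:48346151-48346400, plus strand: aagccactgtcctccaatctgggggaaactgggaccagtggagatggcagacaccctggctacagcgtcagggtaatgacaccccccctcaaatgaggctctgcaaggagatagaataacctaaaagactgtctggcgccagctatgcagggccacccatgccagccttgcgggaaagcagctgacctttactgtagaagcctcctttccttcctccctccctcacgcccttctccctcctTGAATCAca
Cd163, chr6:124304401-124304650, plus strand: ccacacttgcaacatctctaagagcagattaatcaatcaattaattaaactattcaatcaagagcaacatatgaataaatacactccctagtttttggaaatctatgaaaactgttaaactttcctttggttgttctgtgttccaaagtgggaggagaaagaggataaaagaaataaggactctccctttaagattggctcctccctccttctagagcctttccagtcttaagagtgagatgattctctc
The capitals mark TGANTCA in Itgax (56 bases before the start) and Trem2 (9 bases), and GAGGAAGT on the opposite strand in Mmp12 (88 bases), and the Cd44 and Cd163 windows held none of the 3 motifs. Over the myeloid genes, GAGGAAGT stood in 4 of 33 windows, those of C1qc, Mmp12, Retnla and S100a8, against 2.44% of all 32851 windows. TGANTCA stood in 6, those of Cd68, Cd84, Cybb, Itgax, Mmp12 (at a further start) and Trem2, against 6.75% of all. CACGTG stood in 0 of 33, against 6.02%. A match describes letters only and shows no binding.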

How the data were processed

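The authors deposited an intensity for each probe set, computed with RMA (background correction, quantile normalization and probe set summary), per the submitters' processing notes, with the RMA version not given in the sources used here. That the scale is linear was inferred from the range of values. RMA makes array distributions alike, so changes of total RNA cannot appear, and it compresses low values.

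Values were transformed as log2(value + 1). Of 22690 probe sets, 20393 had 1 gene symbol in the platform annotation and 691 had several, which were left out. The brightest probe set stood for each of 12394 genes. The 3 control and 3 YY1bKO arrays were compared with limma 3.58.1 in R 4.3.3 (lmFit, eBayes; 6.11 total degrees of freedom), with Benjamini-Hochberg adjustment over all genes. The step was tested on simulated data. The members, gene groups and other lists were chosen with earlier results of these data known. Values in every array are given for genes with an unadjusted p under 0.05, with groups that do not overlap, and for Adgre1, Cd68, Mrc1, Cd163, Trem2, Tyrobp, Gpnmb, S100a8, S100a9, Lyz1 and Lyz2, besides some others chosen after their values were seen. Of each other list, genes named were among the 4 with the smallest p, except Adipoq, Lep, Ms4a1, Ccr2, Spi1 and Csf1, chosen after seeing their values. Alternatives changed the normalization, the pseudocount, the filter on dim probe sets, the probe set choice, the variance model, the replicate block and the arrays included.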

Additional observations from a re-analysis of the deposited data

How the results depend on the processing

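Across 19 alternatives, 0 of the 38 genes passed an adjusted p of 0.05 by limma. Cd44, Itgax, Mmp12 and Cd163 kept their direction in all of them, with log2 differences of -1.08 to -0.77, -0.93 to -0.54, -1.41 to -0.38 and 0.52 to 0.79. The other genes not listed in the next paragraph also kept theirs wherever fitted. Among them were C1qa, C1qb and C1qc, always higher in these fits, and S100a8 and Lgals3, always lower. The other probe sets of C1qb, not used in the leave-one-out fits, gave -0.14 and -0.13 without control replicate 2. Leaving out each array in turn gave 1 to 12 genes lower and 1 to 6 higher at an unadjusted p under 0.05. In the same fits 0.775% to 4.62% of all genes were lower and 4.55% to 13.2% higher at that p. The medians were -0.38 to -0.066 (all 38 genes), -0.58 to -0.066 (lineage), -0.20 to 0.23 (complement and Fc receptor), -0.13 to 0.44 (resident), -0.60 to -0.23 (lipid-associated) and -1.88 to -0.24 (granulocyte). Without both control replicate 2 and YY1bKO replicate 1, 6 were lower at that p (1.74% of all genes).

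The direction turned under at least 1 alternative for the genes that follow, among them Aif1, Trem2, Clec10a, Cd9 and S100a9, whose differences in all arrays were -0.37, -0.29, 0.28, -0.57 and -0.66. The leave-one-out ranges were -0.33 to 0.20 (Adgre1), -0.24 to 0.21 (Itgam), -0.27 to 0.016 (Lyz1), -0.36 to 0.035 (Lyz2), -0.60 to 0.058 (Aif1), -0.20 to 0.26 (Fcgr1), -0.22 to 0.042 (Fcgr2b), -0.36 to 0.20 (Fcgr3), -0.25 to 0.041 (Fcer1g), -0.21 to 0.44 (Mrc1), -0.013 to 0.53 (Clec10a), -0.17 to 0.27 (Retnla), -0.60 to 0.022 (Trem2), -0.66 to 0.27 (Gpnmb), -0.38 to 0.24 (Ctsk), -0.56 to 0.10 (Msr1) and -1.65 to 0.29 (S100a9). Array weights gave 0.022 for Adgre1 and 0.025 for Fcgr3, and the mean of all probe sets 0.020 for Csf1r. Without both arrays named above the values were -0.20 (Itgam), -0.33 (Fcgr1), -0.27 (Mrc1), -0.036 (Clec10a), -0.27 (Retnla), 0.024 (Cd9) and 1.08 (S100a9). The B cell covariate gave -0.020 (Itgam), -0.051 (Mrc1) and -0.13 (Retnla). Where no array was left out, the cause was not tested.

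Same-numbered arrays of the 2 groups had correlations of deviations from the group means of 0.61, 0.10 and 0.03, so the numbers were not taken to pair the samples. With the replicate block, 3 genes had lower and 1 had higher means at that unadjusted p, where 2.32% and 8.61% of all genes did, and 0 passed the adjusted threshold by limma. The number of arrays and probe sets near the lower quartile of brightness (Arg1, Itgam and S100a9 in part) limit what can be resolved.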
